A study of Mus musculus with 11 samples.

Results

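Genes of the bone morphogenetic protein (BMP) pathway were followed in mouse lymphatic endothelial cells (LECs) and HaCa4 skin carcinoma cells, after the 2 cell types had shared a culture. The set comprised 5 genes taken by symbol, *Bmp6*, *Id2*, and *Atoh8* in LECs and *Id2*, *Eng*, and *Acvrl1* in HaCa4 cells, so that *Id2* was read in both. The deposited values cover 191 genes for LECs and 290 for HaCa4 cells, 458 different genes in all, of which 23 are listed for both. Genes that were not listed for a cell line, such as *Eng* and *Acvrl1* in LECs, were not analysed there.

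BMPs are secreted ligands that bring together type I and type II receptors on the cell surface. The receptors phosphorylate Smad proteins, which enter the nucleus and switch on target genes, among them the *Id* family. Id proteins lack a DNA-binding region and hold back basic helix-loop-helix transcription factors, and Atoh8 is itself a member of that class. In endothelium, Acvrl1 (ALK1), a type I receptor, and Eng (endoglin), its co-receptor, carry the signal of some BMP ligands, and both are required for normal blood vessel development.

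HaCa4 is a mouse skin squamous carcinoma line with oncogenic H-Ras. The LECs, labelled imLEC, carry a thermolabile SV40 large T antigen under the interferon-responsive H-2Kb promoter, and the study used a pair of clones of them without distinction. RNA was sequenced from 11 libraries, HaCa4 control (n = 2) and LEC control (n = 3) from single cultures, HaCa4-sorted (n = 3), and LEC-sorted (n = 3). The sorted cells had been together for 24 h and were then separated by FACS, HaCa4 cells by the dye CFSE and LECs by an antibody to CD31. The sources used here do not say that control cells were stained and sorted. In the paper's methods LECs had a medium with more serum than HaCa4 cells had, plus heparin and VEGF. The methods do not name the medium of the co-culture, so co-culture, sorting, and medium cannot be told apart. Nor do the sources say whether replicates came from separate cultures, and p-values then measure only the spread between these libraries. Levels are given in TPM (transcript abundance scaled for transcript length and to the same total in each library), which holds no read number, so the depth behind each value is unknown.

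*Id2* went in opposite directions in the co-cultured cells. In LECs its mean fell 2.31-fold, together with that of *Bmp6* (2.31-fold) and *Atoh8* (2.41-fold), and in HaCa4 cells it rose to 2.33 times the control mean. *Id1* and *Id3* rose beside it in HaCa4 cells. *Eng* and *Acvrl1* had higher levels in the HaCa4-sorted libraries without passing the test. In these receptor genes sorted replicate 2 was highest and replicate 1 lowest. That order was shared by 18 of 18 other listed endothelial markers and by 103 of the 192 listed genes with higher means. In the 3 *Id* genes replicate 2 was the lowest sorted library.

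Promoter sequence of *Id2*, and of a gene that moved with it in HaCa4 cells (*Id3*) and in LECs (*Bmp6*), is shown for the motifs it holds. The 250 bases before the transcription start in RefSeq on GRCm38.p6 were searched on both strands for GGCGCC and GGAGCC, GC-rich motifs bound by the Smads of the BMP branch, and for CAGAC, the short motif bound by Smad3 and Smad4. Exons in GENCODE, counted for any gene and on either strand, cover 161 of the 250 bases of the *Id2* window and all 250 of the *Id3* and *Bmp6* windows. The exon-free part of the *Id2* window is therefore shown in full, and the rest only in stretches of 28 bases around the matches. All are written 5′ to 3′ on the strand of the gene, with the matches in capitals. *Id2* lies at chr12:25093799-25096092 on the minus strand, and its stretches at chr12:25096254-25096342 (distal) and chr12:25096164-25096191 (proximal). *Id3* lies at chr4:136143822-136145392 on the plus strand, and its stretches at chr4:136143634-136143661 (distal) and chr4:136143743-136143770 (proximal). *Bmp6* lies at chr13:38345716-38500314 on the plus strand, and its stretch at chr13:38345586-38345613.
Id2, distal: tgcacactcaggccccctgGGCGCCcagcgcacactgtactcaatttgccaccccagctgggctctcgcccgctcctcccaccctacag
Id2, proximal: tatgatggacgGGAGCCcttccaccaat
Id3, distal: aGGCTCCgctgtcctcggcgtCAGACca
Id3, proximal: gacccttggcgGTCTGttttgaataagg
Bmp6: gcgcacgtgtgCAGACtgcgagtgaccg

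The *Id2* window held GGCGCC once, from 231 to 226 bases before the start, and GGAGCC once, from 88 to 83 bases before it. In the *Id3* window GGAGCC was found once and CAGAC at 2 places, and in the *Bmp6* window CAGAC was found once. The *Atoh8* gene lies at chr6:72206174-72235780 on the minus strand, and since 203 of the 250 bases of its window fall inside the gene as annotated, it is not shown. Of 32851 RefSeq promoter windows of the same length, 9.59% held GGCGCC, 26.0% held GGAGCC, and 42.2% held CAGAC, so the latter motifs are common in promoters at large. The motifs do not overlap in these windows, and a match is a description of the sequence and does not show binding. Of the 10 pathway genes described here, 8 had a promoter entry, and *Acvrl1* and *Id1* did not. Among the windows not shown, those of *Atoh8* and *Inhbb* held no match. Those of *Bmp4* and *Inhba* held GGAGCC, and that of *Eng* held CAGAC.

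Sorted and control libraries of 1 cell line were compared by limma on log2(TPM + 1), where fold changes of low genes are understated. A gene was called when its log2 fold change was at least 0.5 in size and its adjusted p (Benjamini-Hochberg over the genes listed for that cell line) at most 0.05. The lists are a selection, and for LECs their size is that of the set the study itself called, so that a call within them is not independent evidence. Of the listed LEC genes 96.3% were called, 32.5% in the lower direction. Of the listed HaCa4 genes 30.0% were called, 15.9% in the higher direction.

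*Bmp6*, a secreted ligand of the pathway, had 38.79, 48.33, and 21.44 TPM in LEC control replicates 1 to 3. In LEC-sorted it had 17.63, 15.37, and 14.09 TPM. All 3 sorted libraries lay below all 3 controls, but the lowest control stood close to the highest sorted library. The means were 36.2 ± 13.6 TPM (SD, n = 3) in the control and 15.7 ± 1.79 TPM (SD, n = 3) in LEC-sorted. The log2 fold change was -1.09 (95% confidence interval -1.80 to -0.37, adjusted p = 0.0119 from limma), and the SD was larger among the controls than among the sorted libraries.

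*Id2* was the most abundant of the 3 members in LECs and the one with the clearest separation. The controls had 149.16, 119.20, and 98.88 TPM, and LEC-sorted replicates 1 to 3 had 51.91, 47.69, and 59.36 TPM. No sorted library came near the controls. The mean was 122 ± 25.3 TPM (SD, n = 3) in the control and fell to 53.0 ± 5.91 TPM (SD, n = 3). The log2 fold change was -1.18 (95% confidence interval -1.63 to -0.73, adjusted p = 0.00271 from limma). By p-value it stood at place 28 of the 191 listed genes, against place 134 for *Bmp6* and 170 for *Atoh8*. The call held in each of the 6 fits that left out 1 library.

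*Atoh8*, a basic helix-loop-helix transcription factor and a BMP target in endothelial cells, had 23.55, 39.66, and 14.89 TPM in the LEC controls. It had 9.52, 9.17, and 13.75 TPM in LEC-sorted. Control replicate 3 was only just above sorted replicate 3, and control replicate 2 stood far above the others. The mean was 26.0 ± 12.6 TPM (SD, n = 3) in the control and fell to 10.8 ± 2.55 TPM (SD, n = 3). On the log2 scale this was -1.11 (95% confidence interval -1.95 to -0.27, adjusted p = 0.0188 from limma). This was the least firm of the LEC calls. It was lost without control replicate 2 (log2 fold change -0.76, adjusted p = 0.0511 from limma), without sorted replicate 1 (adjusted p = 0.0528 from limma), and without sorted replicate 2 (adjusted p = 0.059 from limma).

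Thus 3 of 3 members were called lower in LEC-sorted, and in all 3 the ranges of the groups were apart, as they were in the lower direction for 33.0% of the listed LEC genes. Of the 64 listed LEC genes with lower means, 63 were apart, so in this selection the separation adds little to the direction. An exact two-sided permutation test over the 6 libraries gave p = 0.1 for each of the 3 genes, the smallest value that 3 libraries against 3 allow. The order of the levels was *Id2*, then *Bmp6*, then *Atoh8* in the means of both groups. *Bmp6* and *Atoh8* were close to each other, with *Bmp6* at between 1.22 and 1.65 times the level of *Atoh8* within the control libraries and between 1.02 and 1.85 times within the sorted ones. In these bulk libraries, fewer cells that express a gene and less RNA per cell cannot be told apart. A marker of the other cell type moved as well, since *Krt8*, a keratin and the only 1 of 28 keratinocyte markers listed for LECs, was at 0 in every LEC control and at 0.19, 2.19, and 0.89 TPM in LEC-sorted. That is between 0.0859% and 0.99% of its mean in HaCa4-sorted, and its part in the result was not tested.

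**Figure D1:**
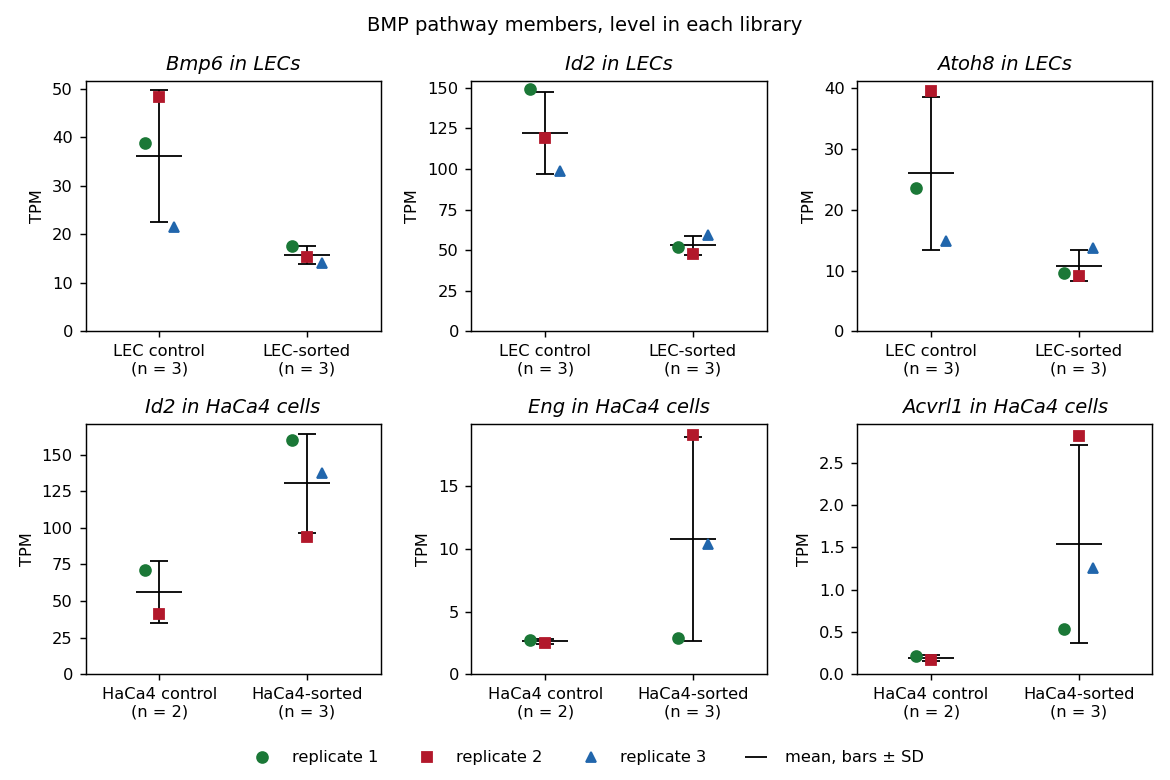
Level in TPM of each member in every library, with LECs above and HaCa4 cells below, one point per library by replicate number, and the mean with bars of ± SD. *Bmp6*, *Id2*, and *Atoh8* were lower in all LEC-sorted libraries, *Id2* was higher in all HaCa4-sorted libraries, and *Eng* in HaCa4-sorted replicate 1 (2.88 TPM) sat next to the controls.

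In HaCa4 cells *Id2* took the other direction. The controls had 70.92 and 41.00 TPM, and HaCa4-sorted replicates 1 to 3 had 160.12, 93.60, and 137.44 TPM. All 3 sorted libraries were above both controls, and replicate 2 was the lowest of them. The mean was 56.0 ± 21.2 TPM (SD, n = 2) in the control and rose to 130 ± 33.8 TPM (SD, n = 3). The log2 fold change was 1.22 (95% confidence interval 0.49 to 1.96, adjusted p = 0.0366 from limma). The exact two-sided permutation p was 0.1, the smallest that 2 libraries against 3 allow. The call rested on few libraries. It was lost without control replicate 1 (log2 fold change 1.61) and without control replicate 2 (0.83), fits that leave 1 control. It was lost too without sorted replicate 3 (adjusted p = 0.0873 from limma), where 0 of the 290 listed genes passed. It held without sorted replicate 1 or 2. It also ended on scaling the libraries to equal medians (log2 fold change 0.37, adjusted p = 0.373 from limma). These medians were taken over the listed genes only. Of these, 192 of 290 had higher means after co-culture, so the scaling also takes away part of a shared rise. The scaling moved the HaCa4 fold changes by a median of -0.72 on the log2 scale. The *Id2* call was lost as well with a pseudocount of 5 (adjusted p = 0.0509 from limma) and in limma without the mean-variance trend (adjusted p = 0.0735). The fit without the trend called 0 genes in HaCa4 cells although 161 had an unadjusted p under 0.05. With a pseudocount of 5, 33 of the 290 genes were called, and after scaling 140, against 87 as reported.

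*Eng*, the co-receptor (chr2:32646595-32682669), was at 2.78 and 2.51 TPM in HaCa4 control and at 2.88, 19.12, and 10.40 TPM in HaCa4-sorted. Replicate 1 was at 1.09 times the control mean, replicate 3 at 3.93 times, and replicate 2 at 7.23 times. The means were 2.65 ± 0.19 TPM (SD, n = 2) and 10.8 ± 8.13 TPM (SD, n = 3), and the log2 fold change of 1.40 did not pass (95% confidence interval -0.29 to 3.09, adjusted p = 0.115 from limma). *Acvrl1*, the type I receptor (chr15:101128522-101145336), was at 0.22 and 0.17 TPM in the control and at 0.54, 2.82, and 1.26 TPM in HaCa4-sorted, the lowest level of the members. Its sorted libraries were all above the controls and ran in the same order. The log2 fold change of *Acvrl1* was 0.99 (95% confidence interval -0.16 to 2.13, adjusted p = 0.107 from limma). This value depends on the pseudocount, being 2.22 with 0.1 and 0.32 with 5, and it passed with neither.

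Without HaCa4-sorted replicate 1, both receptor genes passed, *Eng* with a log2 fold change of 2.06 (adjusted p = 0.0129 from limma) and *Acvrl1* with 1.30 (adjusted p = 0.0204 from limma). That library had the lowest sorted value of both genes. Of the 290 listed genes, 194 passed without it, against 87 with it. Without replicate 2, *Eng* stood at 0.87 and *Acvrl1* at 0.64, short of the threshold. The exact two-sided permutation p was 0.2 for both. With *Id2*, then, 1 of 3 members was called higher in HaCa4-sorted, beside the 15.9% of listed genes given above. In 3 of 3 the libraries did not overlap, and 63.1% of the listed HaCa4 genes were separated in that direction. These were 183 of the 192 listed genes with higher means, so here too the separation adds little to the direction.

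*Eng* and *Acvrl1* are themselves markers of endothelium, and the levels of other endothelial markers were higher in the same libraries. Of a list of 41 such markers, 18 others were listed for HaCa4 cells. The mean was higher after co-culture for all 18, 2 of them were called, and 6 (*Cdh5*, *Erg*, *Flt4*, *Icam2*, *Emcn*, and *Robo4*) were at 0 in both controls. Summed, they came to 1.93 and 0.95 TPM in HaCa4 control and to 17.39, 273.56, and 118.29 TPM in sorted replicates 1 to 3. Among them, the gene of the sorting marker CD31, *Pecam1*, was at 0.14 and 0.04 TPM in the control. It was at 1.29, 24.25, and 9.38 TPM in sorted replicates 1 to 3. Replicate 2 was the highest and replicate 1 the lowest for 18 of 18, and the same order was seen in *Eng*, in *Acvrl1*, and in 103 of the 192 listed genes with higher means. *Kdr*, the only one of them listed for both cell lines, reached 0.149%, 1.85%, and 1.15% of its LEC-sorted mean in HaCa4-sorted replicates 1 to 3. The part of the endothelial markers in the levels of *Eng* and *Acvrl1* was not tested.

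The *Id2* values did not follow that order. HaCa4-sorted replicate 1, with the lowest endothelial sum, had the highest *Id2*, and replicate 2, with the highest sum, had the lowest. Without replicate 2 the log2 fold change of *Id2* was 1.44 (adjusted p = 0.0255 from limma). Since that library had the lowest sorted *Id2*, leaving it out could only raise the value. The order is that of 3 libraries, and the part of the endothelial markers in the level of *Id2* was not tested. Of the keratinocyte markers, 3 of 28 were listed for HaCa4 cells. Together they made up 310.83 and 399.66 TPM in HaCa4 control and between 214.99 and 246.43 TPM in HaCa4-sorted, most of it from *Krt8*. All 3 were lower in HaCa4-sorted without overlap, and 2 of them were called lower. *Pecam1*, which encodes CD31, was not among the genes listed for LECs, and their label could be read on 4 endothelial markers only (*Pdpn*, *Kdr*, *Lyl1*, and *Clec14a*), whose sum was between 390.03 and 565.01 TPM in all LEC libraries, with 3 of the markers called lower and 1 higher.

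**Figure D2:**
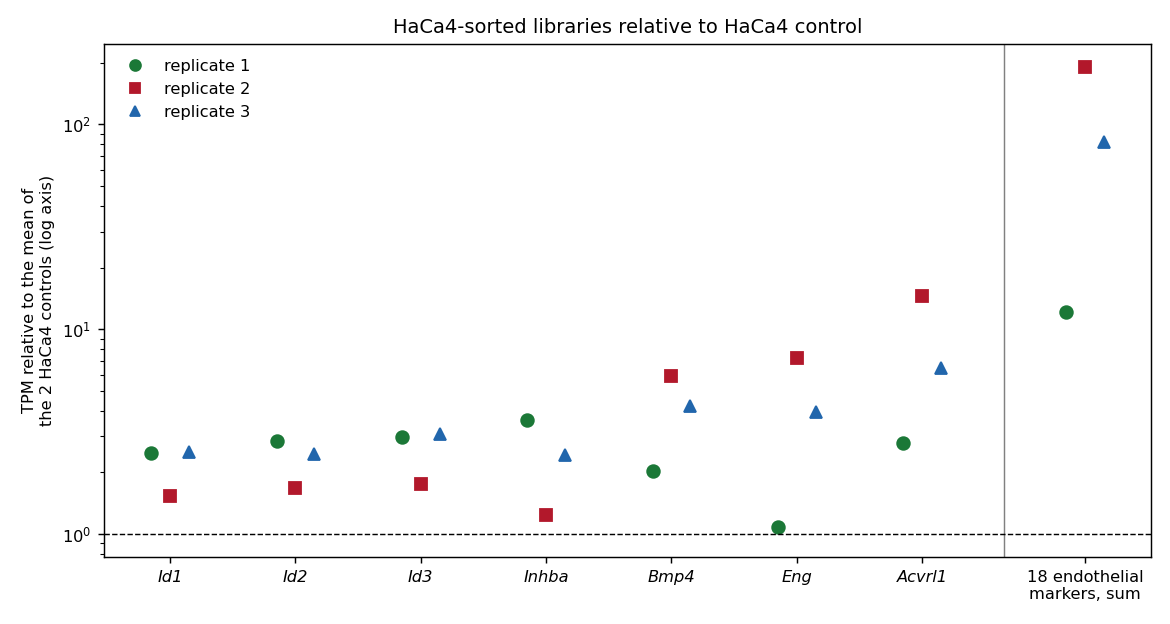
Level in each HaCa4-sorted library divided by the mean of the 2 HaCa4 controls, on a log axis, for the listed BMP and TGF-β pathway genes and for the sum of 18 endothelial markers, with the dashed line at the control mean. Replicate 2 was lowest in *Id1*, *Id2*, *Id3*, and *Inhba* (1.53, 1.67, 1.75, and 1.24 times the control) and highest in *Bmp4*, *Eng*, *Acvrl1*, and the endothelial sum (5.94, 7.23, 14.5, and 190.0 times).

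The opposite course of *Id2* was tested directly, with a limma interaction term fitted to the 11 libraries and the 23 genes listed for both cell lines. *Id2* was chosen with earlier results of these data known, so this test is not independent evidence. The change in LECs minus the change in HaCa4 cells was -2.40 on the log2 scale (95% confidence interval -3.30 to -1.51, adjusted p = 0.000859 from limma). This term had an adjusted p of at most 0.05, with no fold change threshold, for 82.6% of the 23 genes, and *Id2* ranked 3 by p-value. It held in each of the 17 alternatives run, with values from -3.01 to -2.01. In single culture *Id2* was at a higher level in LECs (98.88 to 149.16 TPM) than in HaCa4 cells (41.00 and 70.92 TPM), and after co-culture it was at a lower level in LECs (47.69 to 59.36 TPM) than in HaCa4 cells (93.60 to 160.12 TPM).

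**Figure D3:**
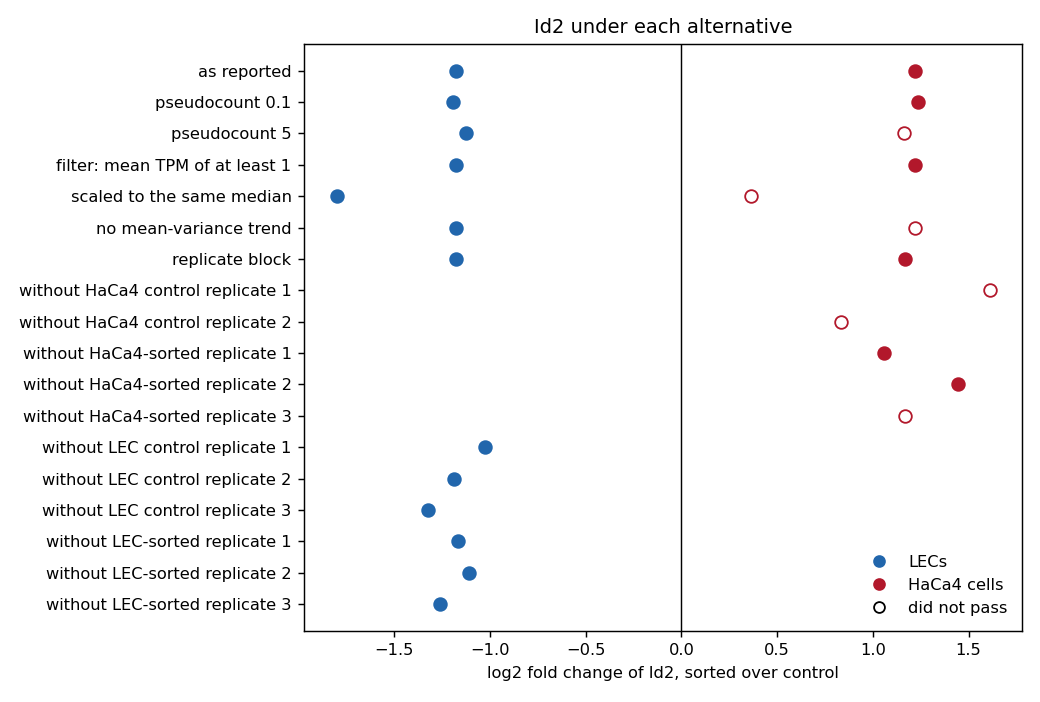
Log2 fold change of *Id2*, sorted over control, in LECs (blue) and HaCa4 cells (red) as reported, under 6 other ways of processing, and with each library left out in turn, where filled circles passed both thresholds. The LEC values stayed between -1.80 and -1.03 and all passed, and the HaCa4 values stayed between 0.37 and 1.61 and passed in 5 of 11 alternatives.

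Other genes of the BMP and TGF-β pathways were read from 71 ligands, receptors, Smads, modulators, and targets. Of these 71, 7 were listed for HaCa4 cells and 4 for LECs, members included. In HaCa4 cells 3 were called higher, 0 lower, and 4 did not pass, where 15.9% of all 290 genes were called higher. The median log2 fold change was 1.22 against 0.74 over all 290. In LECs 3 were called lower and 1 higher, where 32.5% of all 191 genes were called lower. Those 3 were the members, chosen with earlier results known, and they set the LEC median of -1.10 (0.87 over all 191). Without members, the HaCa4 median over 4 genes was 1.22, with 2 called higher. LECs then kept only *Inhbb*, at 1.49. No Smad among the 71 was listed for either cell line.

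Among the targets, *Id1* and *Id3*, relatives of *Id2* that also hold back helix-loop-helix factors, rose in HaCa4 cells. *Id1* (chr2:152736251-152737410) had 333.68 and 210.43 TPM in the control and 677.34, 415.40, and 682.52 TPM in HaCa4-sorted, with a log2 fold change of 1.12 (95% confidence interval 0.42 to 1.82, adjusted p = 0.0386 from limma). *Id3* had 236.93 and 129.71 TPM in the control and 543.10, 321.44, and 566.07 TPM in HaCa4-sorted, with a log2 fold change of 1.39 (95% confidence interval 0.58 to 2.21, adjusted p = 0.0366 from limma). In both genes the groups did not overlap, and replicate 2 was the lowest sorted library, as in *Id2*. The 3 *Id* genes kept nearly fixed proportions within each library. *Id1* was at between 4.23 and 5.13 times the level of *Id2* in the 5 libraries, and *Id3* at between 3.16 and 4.12 times. The calls of *Id1* and *Id3* were lost in the same 6 alternatives as that of *Id2*, and on the scale of equal medians their log2 fold changes were 0.25 and 0.53.

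Among the ligands, *Inhbb*, which encodes a subunit of activin and inhibin, rose in LECs while *Bmp6* fell. It had 2.48, 4.49, and 3.44 TPM in LEC control and 13.92, 11.44, and 9.18 TPM in LEC-sorted, with a log2 fold change of 1.49 (95% confidence interval 0.85 to 2.13, adjusted p = 0.00381 from limma). The related subunit *Inhba* was listed for HaCa4 cells, at 21.20 and 9.70 TPM in the control and 55.61, 19.23, and 37.47 TPM in HaCa4-sorted. Sorted replicate 2 lay between the controls, and *Inhba* did not pass (adjusted p = 0.0818 from limma), though it did without that library (adjusted p = 0.035 from limma). *Bmp4*, a BMP ligand, was at 1.20 and 0.67 TPM in HaCa4 control and at 1.91, 5.55, and 3.94 TPM in HaCa4-sorted. It shared the library order of the receptor genes and did not pass (log2 fold change 1.25, adjusted p = 0.0769 from limma). It passed with a pseudocount of 0.1 (log2 fold change 1.84) and without sorted replicate 1 (log2 fold change 1.57).

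**Figure D4:**
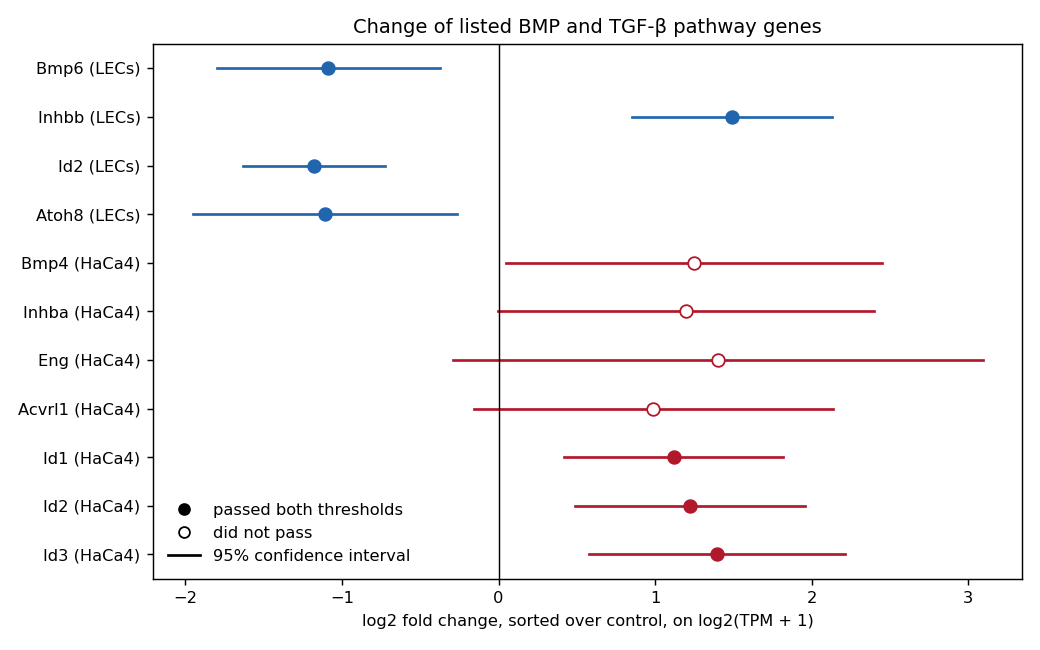
Log2 fold change on log2(TPM + 1), sorted over control, with its 95% confidence interval for the 11 readings of listed BMP and TGF-β pathway genes, LECs in blue and HaCa4 cells in red. In LECs *Bmp6*, *Id2*, and *Atoh8* lay below 0 and *Inhbb* above it, and in HaCa4 cells all 7 estimates were above 0, with *Eng* having the widest interval (-0.29 to 3.09).

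The genes most like each member were found as the 3 with the smallest root mean square difference from it in log2(TPM + 1), each profile first set to its own control mean, over the 5 HaCa4 or 6 LEC libraries. For *Id2* in HaCa4 cells these were *Id1* (0.12), *Wisp2*, a matricellular protein gene (0.14), and *Tubb2a*, a β-tubulin gene (0.14). For *Eng* they were *Erg*, an endothelial transcription factor (0.10), *Adcy4*, an adenylyl cyclase (0.12), and *Flt4*, the receptor VEGFR3 (0.13), all of which were at 0.05 TPM or less in the controls. For *Acvrl1* they were *Scarf1*, a scavenger receptor (0.05), *Rhoj*, a small GTPase (0.06), and *Sgce*, a sarcoglycan (0.10). In LECs the gene nearest to *Bmp6* was *Car8* (0.10), with 34.62, 44.20, and 23.12 TPM in the control and 17.97, 15.08, and 14.73 TPM in LEC-sorted. It was followed by *Fhdc1* (0.21) and *Tcta* (0.24). *Id2* was nearest to *Kcnf1*, a potassium channel subunit (0.12), to *Fhdc1* (0.14), and to *Ass1*, an enzyme of arginine synthesis (0.19). *Atoh8* had less close neighbours, *Lmcd1* (0.19), *Plxna4*, a semaphorin receptor (0.25), and *Gas6*, a ligand of TAM receptors (0.26). In no case was a member of the set the nearest gene to another member in the same cell line.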

How the data were processed

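RNA sequencing of 11 libraries was read from the deposited TPM values, one file per library. Per the paper's methods, the authors used SOAPnuke to filter the reads and HISAT (HISAT2 2.0.4 in the submitters' processing notes) to place them on GRCm38.p6, and called differential expression with DESeq2. The tool that gave the TPM values is not given in the sources used here. The second HaCa4 control is replicate 2 by its label, and its column header carries the number 3. In replicate pairs, the highest number of genes sharing the same nonzero value was 5, so all libraries were kept.

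Groups came from the sample titles. Comparisons used limma 3.58.1 in R 4.3.3 on log2(TPM + 1), with a mean-variance trend, within each cell line and without a replicate block. Tests were two-sided, and the step was checked on simulated data. The members, the gene lists, and the tests were chosen with earlier results of these data known. Named were the members, every listed gene of the pathway list except 1 that is not reported here and was left out of the list counts, and the 3 nearest genes of each member. Alternatives were pseudocounts of 0.1 and 5, a mean TPM of at least 1, scaling to the same median, no trend, a replicate block, and leaving out each library. Gene coordinates and promoters came from RefSeq on the authors' build, matched by Entrez ID, and exons from GENCODE on the same build. Tables and plots used Python 3.11.15, pandas 2.3.3, numpy 2.4.6, and matplotlib 3.10.9.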

Additional observations from a re-analysis of the deposited data

Results flagged for a closer look

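*Id2*, the only member listed for both cell lines, differed between them by a direct test, as did 82.6% of the 23 genes listed for both. It had been chosen with earlier results of these data known. Its change in LECs minus its change in HaCa4 cells was -2.40 on the log2 scale (adjusted p = 0.000859 from the limma interaction term), with lower values in 3 of 3 LEC-sorted libraries and higher values in 3 of 3 HaCa4-sorted libraries. Groups were apart in the same way for 33.0% of LEC genes (lower) and 63.1% of HaCa4 genes (higher), and the rise in HaCa4 cells alone lost its call in 6 of 11 alternatives. No group has the 4 libraries needed to look for a single library that stands apart.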

How the results depend on the processing

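The calls of *Bmp6* and *Id2* in LECs and the difference of *Id2* between cell lines kept their direction and their side of the threshold in every alternative run, as did *Atoh8* apart from fits that left out 1 library, which gave log2 fold changes from -1.44 to -0.76. *Id2* in HaCa4 cells kept its direction and lost its call with a pseudocount of 5 (1.16), when scaled to the same median (0.37), and without the trend (1.22), and leaving out 1 library gave 0.83 to 1.61. Leaving out 1 library gave 0.87 to 2.06 for *Eng* and 0.64 to 1.30 for *Acvrl1*. No result reversed.

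Scaling to the same median, taken over the listed genes only, shifted all log2 fold changes by a median of -0.72 in HaCa4 cells and -0.61 in LECs. *Bmp6*, *Id2*, and *Atoh8* then stood at -1.69, -1.80, and -1.70 in LECs, and *Eng* and *Acvrl1* at 0.69 and 0.68. Of 191 LEC genes 184 passed, 122 higher and 62 lower, and 110 after scaling, 46 higher and 64 lower. Of 290 HaCa4 genes 87 passed, 46 higher and 41 lower. The count was 177 with a pseudocount of 0.1, 33 with 5, 140 after scaling (46 higher, 94 lower), and 0 without the trend. Leaving out 1 library gave from 0 to 194. It was 194 without HaCa4-sorted replicate 1, 6 without HaCa4 control replicate 1, and 0 without HaCa4 control replicate 2 or HaCa4-sorted replicate 3, where 70 and 126 genes had an unadjusted p under 0.05. The cause was not tested.

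Nothing in the labels pairs the libraries by number. Deviations of same-numbered LEC libraries correlated across genes at 0.23, 0.07, and -0.02. In HaCa4 cells both same-numbered pairs were positive (0.23 and 0.28), which with only 2 pairs leaves pairing undecided. With 2 controls, the deviations of one are those of the other with the sign turned. The second control has the number 3 in its column header, and with sorted replicate 3 it correlated at -0.09. The replicate block followed the labels. With a replicate block, *Id2* stood at -1.18 in LECs and 1.17 in HaCa4 cells (SE 0.11 against 0.30 without it), 182 LEC and 115 HaCa4 genes passed, no member's call changed, and *Inhba* passed at 1.13. TPM values give no read depth, so limits on low genes such as *Acvrl1* cannot be set.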
